A study of Mus musculus with 32 samples.

Results

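The data concern 10 ubiquitin ligase genes linked to muscle atrophy, read in the gastrocnemius medialis and soleus of mice whose myofibres had lost the activin and TGF-β type I receptors Acvr1b (ALK4), Tgfbr1 (ALK5) or both. The members were the genes of the count table whose Ensembl identifier carries the symbol Trim63, Fbxo32, Fbxo30, Fbxo40, Fbxo21, Trim54, Trim55, Cblb, Stub1 or Traf6. All 10 were found among 55487 genes, all are protein-coding, and all 10 passed the filter on low counts in every fit. There were 4 genotypes: double KO (both receptors), Acvr1b KO, Tgfbr1 KO and control. Each was represented by 4 mice, and each mouse gave 1 gastrocnemius and 1 soleus library, so that 16 mice gave 32 libraries in 8 groups of 4. Tamoxifen was injected at 6 weeks of age to delete the receptors in myofibres, and the left muscles were frozen 3 months later. The labels name neither the promoter that drives the recombinase nor the alleles and tamoxifen treatment of the controls. RNA came from whole muscle, so the nuclei and cells outside the fibres, which the deletion does not target, are in every library.

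Skeletal muscle loses mass when protein breakdown outpaces synthesis, and much of that breakdown runs through ubiquitin ligases that mark proteins for the proteasome. Trim63 (MuRF1) and Fbxo32 (atrogin-1) are the classical markers of this programme: FoxO factors and glucocorticoids turn them on during fasting, disuse and denervation, and insulin-like signalling through Akt holds FoxO factors back. Myostatin and activins signal through type I receptors including Acvr1b and Tgfbr1 to SMAD2 and SMAD3, a pathway known to limit muscle mass.

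Libraries held 16535498 to 54456977 counts. Levels are given as CPM, counts relative to the library size, after scaling by TMM, edgeR's correction for differences in composition. The members' calls rest on edgeR's quasi-likelihood test with Benjamini-Hochberg adjustment over all genes tested and a threshold of 0.05. Acvr1b mRNA was lower wherever that gene was targeted, by a log2 fold change of −2.59 (adjusted p = 1.49e-08, edgeR) in double KO and −2.05 (adjusted p = 2.86e-06) in Acvr1b KO gastrocnemius, and of −2.22 (adjusted p = 1.52e-05) and −1.70 (adjusted p = 0.000517) in soleus. Tgfbr1 mRNA was not called lower in Tgfbr1 KO muscle (log2 fold change 0.05, adjusted p = 0.999 by edgeR in gastrocnemius, and −0.12, adjusted p = 1 in soleus), and it was higher in double KO gastrocnemius (0.76, edgeR adjusted p = 0.00285). A whole-gene count does not show whether an exon was removed, so the loss of Tgfbr1 in both genotypes rests on their labels. Of the fast-fibre markers 4 of 5 were lower and of the slow-fibre markers 5 of 5 were higher in control soleus than in control gastrocnemius, as the muscles' labels imply. Both libraries of the mouse double KO 1 stood apart from the other double KO libraries, and results that rest on them are given with and without that mouse. In the labels the double KO mice carry animal numbers in a range of their own, and so do the controls, while those of the single knockouts overlap. The labels do not say whether these numbers mark cohorts. Genotype and a possible cohort therefore cannot be told apart in comparisons of genotypes with double KO or control.

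Per kilobase of gene model, the members spanned more than 2 orders of magnitude in control gastrocnemius. There Trim63 led with 554 ± 49.2 CPM per kb (SD, n = 4), followed by Trim54 at 284 ± 18.3, Fbxo32 at 144 ± 22.5 and Fbxo40 at 104 ± 6.67 CPM per kb. Trim55 (22.7 ± 2.99 CPM per kb) and Stub1 (22.6 ± 3.42 CPM per kb) were level with each other. Cblb, Fbxo30, Traf6 and Fbxo21 lay between 3.82 ± 0.218 and 2.24 ± 0.542 CPM per kb, and intervals of 1 SD overlapped between Cblb and Fbxo30 and between Fbxo30 and Traf6. The order differed in control soleus, where Trim54 (186 ± 18 CPM per kb) stood first and Trim63 (106 ± 23.7) and Fbxo40 (83.3 ± 11.6) overlapped within 1 SD. Fbxo32 followed at 49.0 ± 12.1, Stub1 at 21.3 ± 0.689 and Trim55 at 15.1 ± 1.40 CPM per kb. Fbxo30, Cblb, Fbxo21 and Traf6 closed the order, at 3.45 ± 0.396 down to 2.05 ± 0.239 CPM per kb, each overlapping its neighbour within 1 SD.

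**Figure D1:**
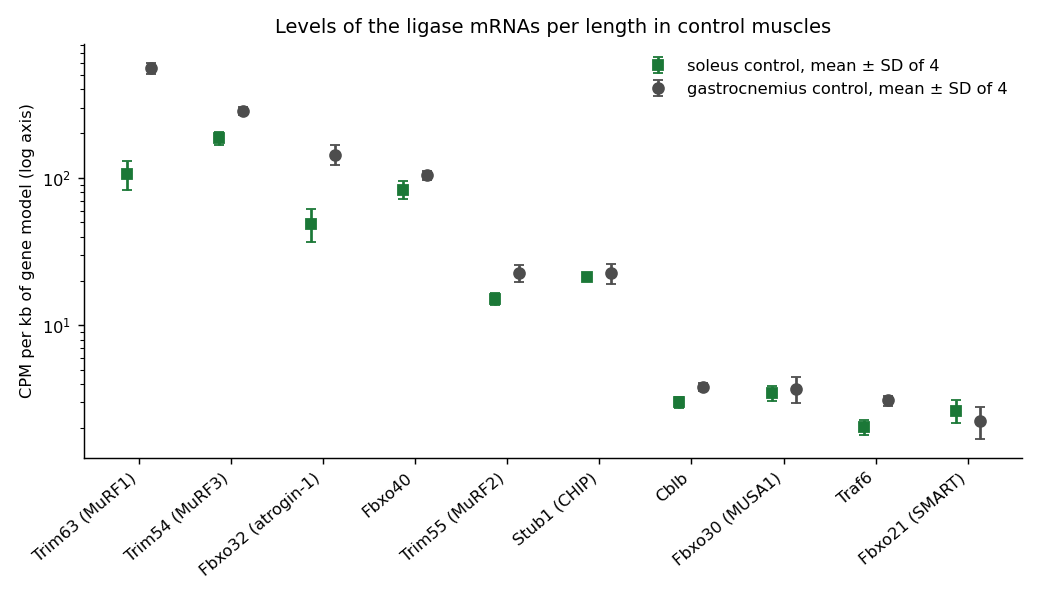
Levels of the 10 ligase mRNAs in control muscle, in CPM per kilobase of gene model on a log axis, for soleus (squares) and gastrocnemius (circles); points are means and bars 1 SD over 4 libraries. Trim63 stands at 106 in soleus and 554 in gastrocnemius, while Stub1 stands at 21.3 and 22.6.

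RefSeq promoters (GRCm38.p6, from 250 bases before to 50 bases after the annotated start) were found for 8 of the 10 members. Those of Fbxo32 and Trim55 are named only. Promoters are printed 5′ to 3′ for Trim63, the member with the widest swings between libraries, and for Trim54, Cblb and Stub1, the 3 that differed between double KO and control gastrocnemius. Capitals mark matches, on either strand, to the forkhead letters GTAAACA or TGTTTGC, the SMAD letters CAGAC and the glucocorticoid receptor half-site letters AGAACA.
Trim63, chr4:134314870-134315169, plus strand: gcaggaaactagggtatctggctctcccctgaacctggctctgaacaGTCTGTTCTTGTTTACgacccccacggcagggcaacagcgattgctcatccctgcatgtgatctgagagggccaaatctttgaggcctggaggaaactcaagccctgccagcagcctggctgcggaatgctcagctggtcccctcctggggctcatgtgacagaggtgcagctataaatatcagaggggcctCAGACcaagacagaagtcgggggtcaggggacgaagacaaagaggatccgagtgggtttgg
Trim54, chr5:31116362-31116661, plus strand: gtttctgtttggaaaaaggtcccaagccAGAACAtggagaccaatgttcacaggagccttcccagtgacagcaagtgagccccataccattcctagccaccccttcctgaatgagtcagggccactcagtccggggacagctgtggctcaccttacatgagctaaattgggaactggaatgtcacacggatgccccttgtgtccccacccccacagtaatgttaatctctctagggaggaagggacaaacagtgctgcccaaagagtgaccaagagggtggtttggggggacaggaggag
Cblb, chr16:52031299-52031598, plus strand: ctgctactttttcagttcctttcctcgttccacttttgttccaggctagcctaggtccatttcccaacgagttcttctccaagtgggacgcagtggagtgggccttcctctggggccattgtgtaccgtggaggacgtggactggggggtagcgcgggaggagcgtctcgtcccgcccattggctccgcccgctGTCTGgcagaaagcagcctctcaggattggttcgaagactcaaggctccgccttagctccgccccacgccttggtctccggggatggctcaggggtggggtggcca
Stub1, chr17:25832870-25833169, minus strand: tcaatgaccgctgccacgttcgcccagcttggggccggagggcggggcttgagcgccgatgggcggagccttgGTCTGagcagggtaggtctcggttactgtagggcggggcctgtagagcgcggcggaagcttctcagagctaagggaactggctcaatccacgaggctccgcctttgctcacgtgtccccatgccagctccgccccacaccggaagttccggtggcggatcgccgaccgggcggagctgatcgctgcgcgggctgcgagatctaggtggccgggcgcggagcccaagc
Trim63 was the only one of the 8 members with a forkhead match in this window, at −194 from the start on the opposite strand. RefSeq holds 32851 promoters of this length here, of which 3.65% hold GTAAACA and 5.07% hold TGTTTGC. The forkhead match directly follows a glucocorticoid half-site match at −200, which overlaps a SMAD match at −203, and a further SMAD match lies at −11. Trim54 has a glucocorticoid half-site match at −222, Cblb a SMAD match at −56 and Stub1 a SMAD match at −177. These letters are common, with CAGAC in 49.6% and AGAACA in 19% of promoters. E-boxes (CANNTG, in 72.3% of promoters) were found in all 4 printed promoters and are not capitalised. A match of letters is a description and does not show that a factor binds there.

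In double KO gastrocnemius 3 of the 10 members were lower than in control, Trim54, Cblb and Stub1, and none was higher. Of all 17536 genes tested in this comparison 20.9% were called and 9.59% were lower, and 10.9% had all double KO libraries under all controls, as these 3 members had. The members' median log2 fold change was −0.17, beside 0.00 over all genes tested. Trim63 stood far under the controls in 3 of the 4 double KO mice and above every control in the other one, and did not pass the test over all 4.

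Among the MuRF family of RING-type ligases, which sit at the sarcomere, Trim54 (MuRF3; ENSMUSG00000062077, GRCm38 chr5:31116712-31137630, plus strand) binds microtubules and helps keep them stable. It measured 297, 305, 326 and 330.1 CPM in double KO gastrocnemius, 412, 392, 395 and 379.5 in Acvr1b KO, 344, 369, 385 and 417 in Tgfbr1 KO, and 410, 424, 369.5 and 427 in control. After TMM scaling all 4 double KO libraries lay under all 12 others, a mean of 315 ± 15.8 CPM in double KO against 407 ± 26.3 in control (SD, n = 4 each). As CPM of the plain library total, without TMM, the means were 312 ± 16.6 in double KO and 354 ± 53.2 in control. Among all 32 libraries gastrocnemius control 1 had the lowest TMM factor, 0.69, and the largest mitochondrial share of counts, 25.99%. The log2 fold change was −0.36 (SE 0.0696, edgeR adjusted p = 0.00147), and the adjusted p stayed between 4.73e-06 and 0.019 over 14 alternative analyses. Trim54 was also lower in double KO than in Acvr1b KO (log2 fold change −0.32, adjusted p = 0.00462 by edgeR). Against Tgfbr1 KO it was lower by a log2 fold change of −0.25 (edgeR adjusted p = 0.0235), a call lost without Tgfbr1 KO 3 (0.0673), without Tgfbr1 KO 4 (0.0666) and without double KO 2 (0.0613).

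Trim63 (MuRF1; ENSMUSG00000028834, chr4:134315120-134329629, plus strand) targets thick-filament proteins for breakdown. Its gastrocnemius levels were 1899, 391, 479.7 and 545 CPM in double KO, 1626, 1107, 1159 and 1008 in Acvr1b KO, 936, 1051, 1122 and 778 in Tgfbr1 KO, and 1737, 1640.1, 1436 and 1481 in control. Double KO 2, 3 and 4 lay under all 12 libraries of the other genotypes, while double KO 1 was the highest of all 16. The log2 fold change of double KO over control was −0.90 (SE 0.367, edgeR adjusted p = 0.0926); without double KO 1 it was −1.73 (SE 0.170, adjusted p = 3.98e-06). Without that library Trim63 was also lower than in Acvr1b KO (log2 fold change −1.38, edgeR adjusted p = 3.83e-05) and than in Tgfbr1 KO (−1.04, adjusted p = 0.000628), where with it the values were −0.55 (adjusted p = 0.345) and −0.21 (adjusted p = 0.796).

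Trim55 (MuRF2; ENSMUSG00000060913, chr3:19644474-19692421, plus strand) is a titin-associated relative of Trim63. It measured 34, 55.8, 54.3 and 54.7 CPM in double KO gastrocnemius and 71.6, 52.8, 59.4 and 58.1 CPM in control. The groups overlapped, and double KO 1, the library highest for Trim63, was the lowest of the muscle for Trim55. The log2 fold change of −0.27 (SE 0.133, edgeR adjusted p = 0.156) did not pass the test. In Acvr1b KO and Tgfbr1 KO gastrocnemius Trim55 ran from 51.1 to 65.4 CPM.

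**Figure D2:**
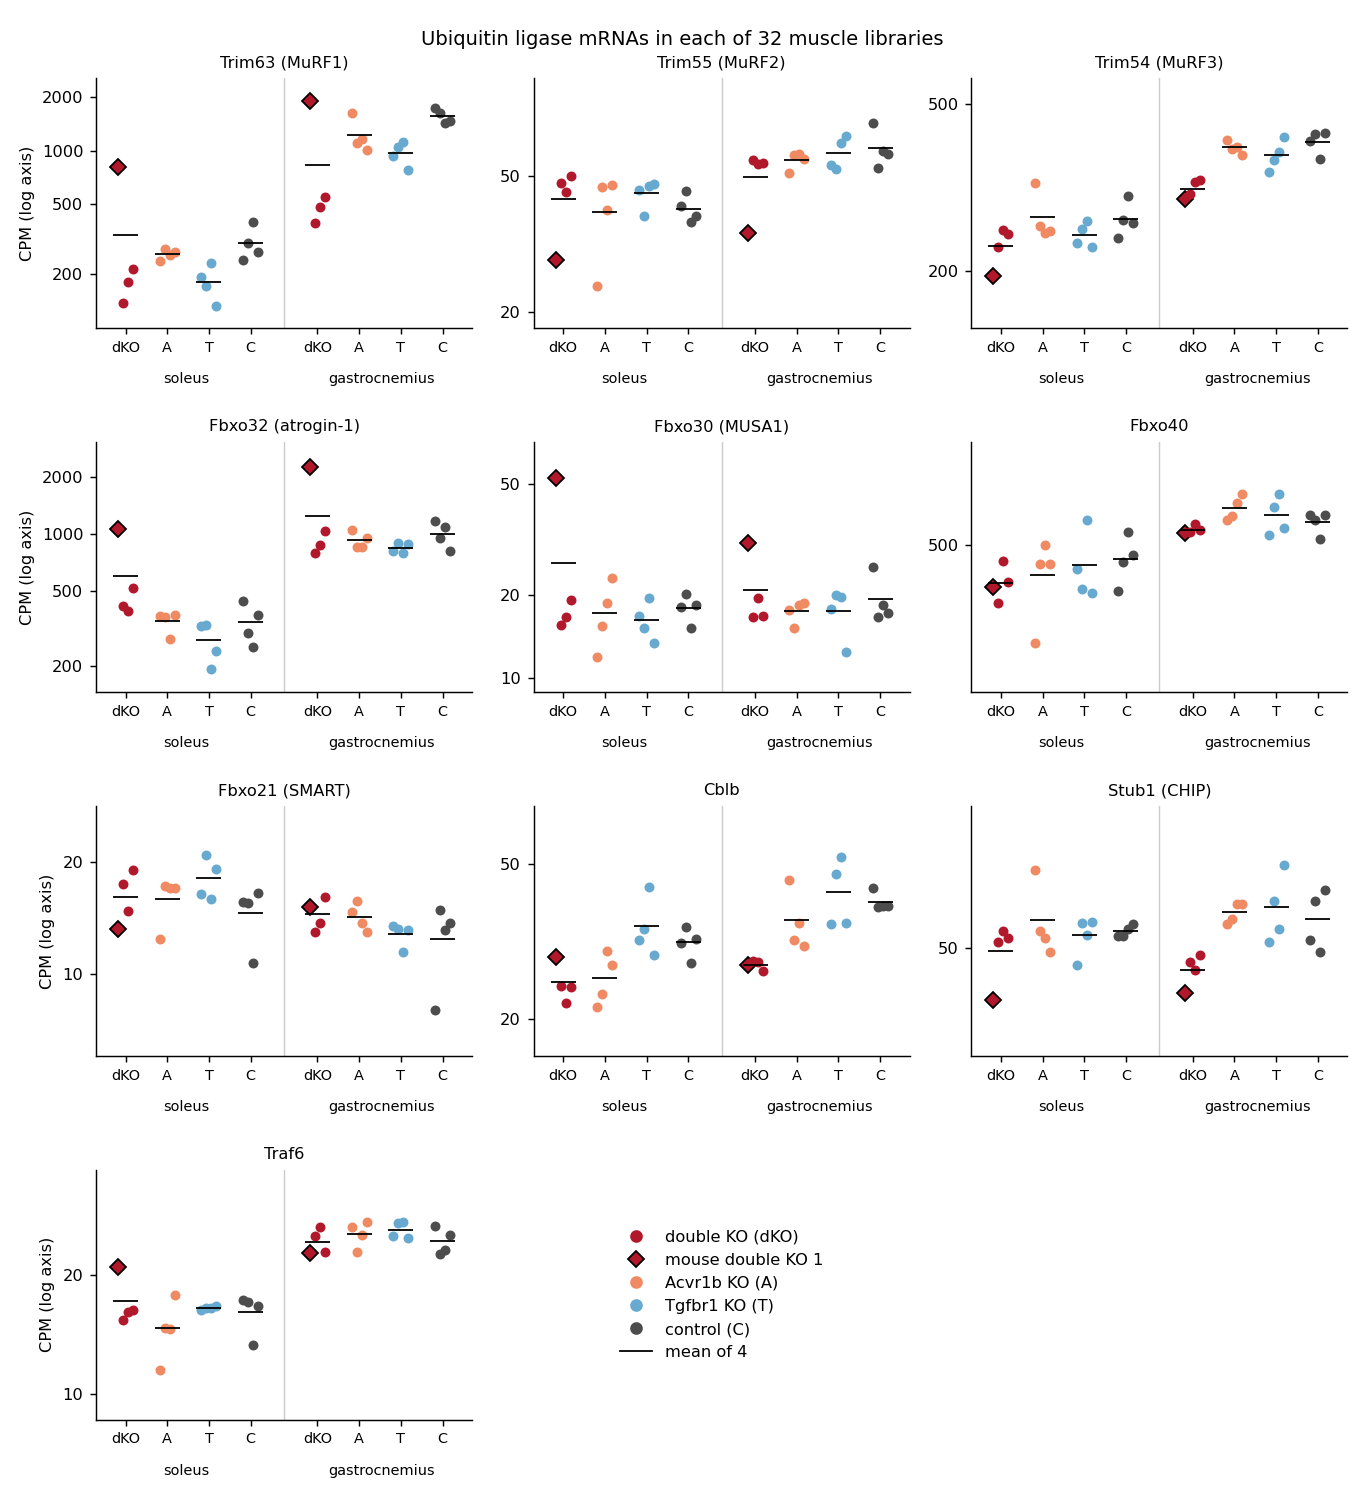
CPM of each ligase mRNA on a log axis in each of 32 libraries, soleus to the left and gastrocnemius to the right of the grey line in every panel; dots are libraries of double KO (dKO), Acvr1b KO (A), Tgfbr1 KO (T) and control (C), diamonds the mouse double KO 1, and bars the means of 4. In gastrocnemius the Trim54 libraries of double KO (297 to 330.1 CPM) sit under all others, and the Trim63 diamond (1899 CPM) sits above 3 double KO dots at 391 to 545 CPM.

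Cblb (ENSMUSG00000022637, chr16:52031225-52208048, plus strand), a RING ligase known to degrade IRS1 in unloaded muscle, was tightly grouped in double KO gastrocnemius. It measured 27.5, 28.1, 28 and 26.6 CPM in double KO, 45.4, 31.9, 35.2 and 30.7 in Acvr1b KO, 35, 47.2, 52.2 and 35.3 in Tgfbr1 KO, and 43.5, 38.8, 38.9 and 39.0 in control. After TMM scaling all 4 double KO libraries were lower than the other 12, with means of 27.6 ± 0.666 CPM in double KO and 40.1 ± 2.28 in control (SD, n = 4 each). As CPM of the plain library total the means were 27.3 ± 1.48 in double KO and 34.6 ± 3.07 in control (SD). The log2 fold change over control was −0.53 (SE 0.133, edgeR adjusted p = 0.00986), with adjusted p between 0.00181 and 0.0292 over the 14 alternatives. Cblb was lower in double KO than in Tgfbr1 KO (−0.61, SE 0.134, edgeR adjusted p = 0.00636). Against Acvr1b KO the value of −0.37 missed the threshold (edgeR adjusted p = 0.0695), and without Acvr1b KO 4 it passed at −0.44 (adjusted p = 0.0487).

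Stub1 (CHIP; ENSMUSG00000039615, chr17:25830505-25833404, minus strand), a U-box ligase that works with the chaperones Hsp70 and Hsp90 on misfolded proteins, measured 39.6, 46.4, 44.7 and 48.1 CPM in double KO gastrocnemius. The other genotypes gave 56.6, 58.0, 62.7 and 62.7 CPM in Acvr1b KO, 51.4, 63.5, 55.2 and 76.6 in Tgfbr1 KO, and 52.1, 63.7, 49.0 and 67.1 in control. Here too the 4 double KO libraries lay under the other 12 after TMM scaling, the nearest being a control at 49.0 CPM. As CPM of the plain library total the means were 44.2 ± 1.96 in double KO and 50.7 ± 12.2 in control (SD). Stub1 was lower in double KO than in control by a log2 fold change of −0.36 (SE 0.113, edgeR adjusted p = 0.0310), than in Acvr1b KO by −0.42 (adjusted p = 0.0177) and than in Tgfbr1 KO by −0.45 (adjusted p = 0.0141). The call against control was lost without control 2 (0.0838), control 4 (0.0939), double KO 1 (0.0741) or double KO 3 (0.0703), and the log2 fold change then lay between −0.29 and −0.36.

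Traf6 (ENSMUSG00000027164, chr2:101678429-101701669, plus strand), an adaptor ligase of cytokine signalling that builds lysine-63-linked chains, gave overlapping levels in all gastrocnemius genotypes. It measured 22.7 to 26.4 CPM in double KO, 22.8 to 27.2 in Acvr1b KO, 24.7 to 27.1 in Tgfbr1 KO and 22.5 to 26.6 in control, with a log2 fold change of 0.00 for double KO over control (SE 0.0806, edgeR adjusted p = 0.988).

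The 4 F-box members lend substrate specificity to SCF complexes built on Cul1 and Skp1, and none of them was called in double KO gastrocnemius. Fbxo32 (atrogin-1; ENSMUSG00000022358, chr15:58175879-58214932, minus strand), which targets MyoD and eIF3f, measured 2277, 793, 878 and 1038 CPM in double KO, 1051, 857, 857 and 958 in Acvr1b KO, 813, 894, 794 and 891 in Tgfbr1 KO, and 1172, 957, 1087 and 813 in control. Double KO 1 alone stood above the rest, and the other 3 double KO libraries overlapped the controls. Its log2 fold change was 0.32 (SE 0.248, edgeR adjusted p = 0.382) with double KO 1 and −0.16 (SE 0.125, adjusted p = 0.405) without it. Its counts were fractional in all 32 libraries, so some of its reads also aligned elsewhere.

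Fbxo30 (MUSA1; ENSMUSG00000047648, chr10:11281330-11298052, plus strand), a ligase that BMP signalling restrains in denervated mouse muscle, measured 30.7, 16.6, 19.4 and 16.8 CPM in double KO gastrocnemius and 25.2, 16.7, 18.3 and 17.2 CPM in control. The groups overlapped, with 1 high library in each, and the log2 fold change was 0.12 (SE 0.199, edgeR adjusted p = 0.704). Fbxo40 (ENSMUSG00000047746, chr16:36963460-36990467, minus strand), a muscle-restricted ligase of IRS1, measured 534, 538, 565 and 543 CPM in double KO and 596, 577, 518 and 596 CPM in control, which overlap. Its log2 fold change was −0.06 (SE 0.0796, edgeR adjusted p = 0.656); against Acvr1b KO, where it ran from 576 to 674 CPM, it was −0.18 (adjusted p = 0.148) with no overlap between libraries. Fbxo21 (SMART; ENSMUSG00000032898, chr5:117976730-118010201, plus strand), an F-box protein induced in denervated mouse muscle, ran from 12.9 to 16.1 CPM in double KO and from 8.0 to 14.8 CPM in control (log2 fold change 0.24, SE 0.143, edgeR adjusted p = 0.26).

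Set against the single knockouts in gastrocnemius, the double KO had 2 members lower than in Acvr1b KO, Trim54 and Stub1, where 16.3% of all genes were called, 7.06% were lower and 13.7% were lower without overlap. It had 3 lower than in Tgfbr1 KO, Trim54, Cblb and Stub1, where 12.9% were called, 5.42% were lower and 8.09% were lower without overlap. These comparisons use the same 4 double KO libraries.

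**Figure D3:**
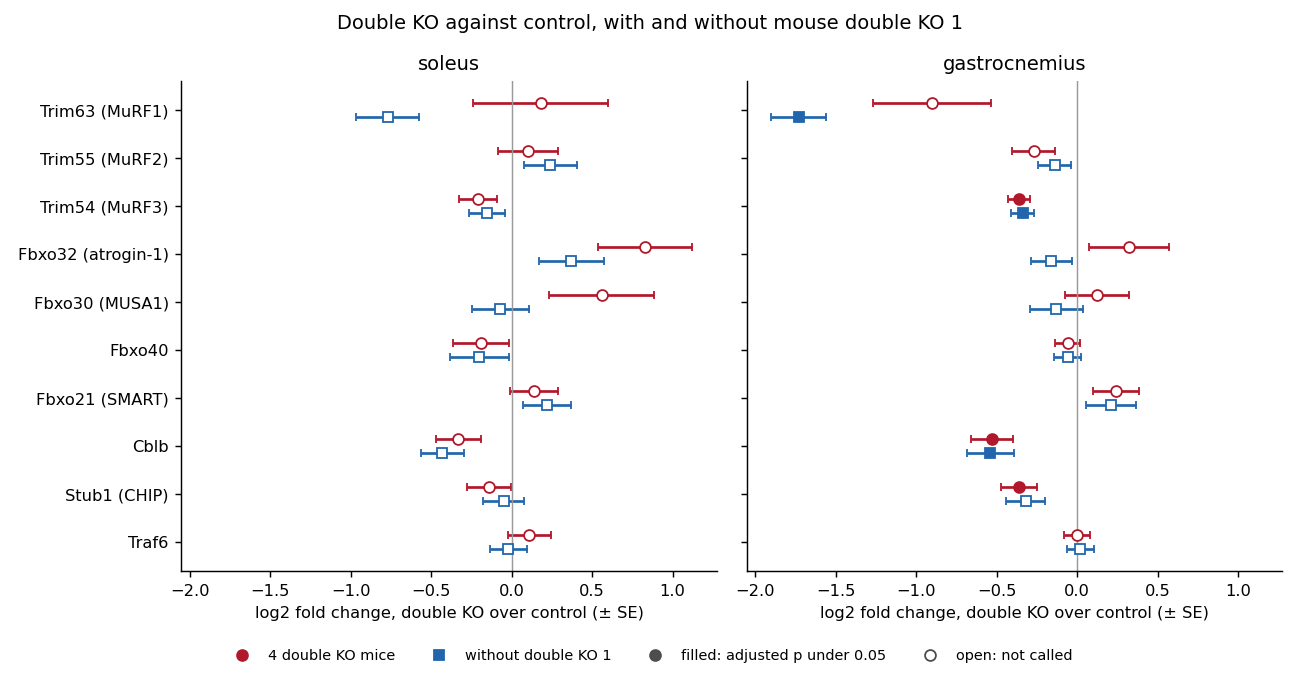
Log2 fold change of double KO over control for each ligase in soleus (left) and gastrocnemius (right), with all 4 double KO mice (red circles) and without the mouse double KO 1 (blue squares); bars are 1 SE and filled symbols have an adjusted p under 0.05. In gastrocnemius Trim63 has an open circle at −0.90 and, without that mouse, a filled square at −1.73, and Trim54 and Cblb are filled both ways.

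None of the 10 members passed the test in either single knockout, in either muscle. In gastrocnemius 0 of 10 were called in Acvr1b KO and 0 of 10 in Tgfbr1 KO, where 0.0285% and 0.171% of all genes were called, and 0 members had an unadjusted p under 0.05 in either. In soleus the counts were also 0 and 0, beside 0.022% and 0.0496% of all genes, and DESeq2 called 0 members in each of these 4 comparisons, beside 0.148% of all genes in Acvr1b KO and 0.325% in Tgfbr1 KO gastrocnemius and 0.0496% and 0.105% in soleus. At an unadjusted p under 0.05 stood 1 member, Cblb in Acvr1b KO soleus, with 21.4, 23.2, 29.9 and 27.5 CPM against 31.4, 34.4, 27.9 and 32 CPM in control (log2 fold change −0.29, unadjusted p = 0.048, edgeR adjusted p = 1), beside 353 of 18143 genes. Trim63 was the 1 member whose Tgfbr1 KO libraries did not overlap the controls. In gastrocnemius the Tgfbr1 KO libraries, at 778 to 1122 CPM, lay under the controls at 1436 to 1737 CPM (log2 fold change −0.70, SE 0.366, edgeR adjusted p = 0.861); 2.23% of all genes were lower without overlap there. In soleus they measured 193, 171, 230.5 and 132 CPM against 240.3, 302, 396 and 269 CPM in control (log2 fold change −0.74, SE 0.421, edgeR adjusted p = 1), beside 1.88% of all genes. Both separations missed the test.

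Whether the double KO differed from the sum of the single effects was tested as a departure from additivity. In gastrocnemius 0 of 10 members departed from it in the edgeR fit, where 2.14% of all genes did, and 3 had an unadjusted p under 0.05, beside 2609 of 17536 genes. These were the 3 members that were lower in double KO than in control. Stub1 had a departure of −0.51 on the log2 scale (SE 0.159, adjusted p = 0.116 by edgeR), Cblb of −0.45 (adjusted p = 0.26) and Trim54 of −0.21 (adjusted p = 0.321). In soleus 0 of 10 departed, 0% of all genes did, and 1 member, Fbxo32, had an unadjusted p under 0.05 (departure 1.12, unadjusted p = 0.0157), beside 614 of 18143 genes. DESeq2 called 0 members in either muscle, beside 4.19% of all genes in gastrocnemius and 0% in soleus.

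In double KO soleus none of the 10 members passed the test against control, where 0.722% of 18143 genes were called. DESeq2 called 0 members there, beside 2.26% of all genes, and 2 members had an unadjusted edgeR p under 0.05, beside 2219 of 18143 genes. Fbxo32 measured 1067, 416, 390.4 and 518 CPM in double KO, 368, 366, 277 and 374 in Acvr1b KO, 328, 331, 194 and 241 in Tgfbr1 KO, and 444, 299, 251 and 373 in control. The double KO libraries all lay above those of both single knockouts, while 1 control at 444 CPM fell among them. Fbxo32's log2 fold change over control was 0.83 (SE 0.294, edgeR adjusted p = 0.251), and without double KO 1 it was 0.37 (adjusted p = 0.499). Over Tgfbr1 KO it was 1.15 (SE 0.295, edgeR adjusted p = 0.28), which DESeq2 called (adjusted p = 0.0252) as the 1 member beside 0.463% of all genes, and over Acvr1b KO 0.80 (edgeR adjusted p = 0.355). In those comparisons with Acvr1b KO and Tgfbr1 KO 0 of 10 members were called by edgeR, beside 0.127% and 0.0496% of all genes, and 2.18% and 2.14% of all genes were higher without overlap. Cblb measured 28.9, 24.3, 22 and 24.2 CPM in double KO soleus, against 31.8, 34.1, 43.6 and 29.1 CPM in Tgfbr1 KO soleus. The double KO libraries were all lower, as they were for 2.45% of all genes, with a log2 fold change of −0.47 (SE 0.137, edgeR adjusted p = 0.329). Against Tgfbr1 KO 4 members, Fbxo32, Trim63, Fbxo30 and Cblb, stood at an unadjusted p under 0.05, beside 1656 of 18143 genes. Without double KO 1 the log2 fold change of Fbxo32 over Tgfbr1 KO was 0.69 (edgeR adjusted p = 0.313). Trim63 then stood at −0.03, against 0.92 with that mouse, and Fbxo30 at 0.08, against 0.71. Cblb lay between −0.56 and −0.34 over 14 alternative analyses.

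Cblb measured 28.9, 24.3, 22 and 24.2 CPM in double KO soleus and 31.4, 34.4, 27.9 and 32 CPM in control. The double KO 1 library overlapped the lowest control, and the other 3 lay under all controls (log2 fold change −0.33, SE 0.137, edgeR adjusted p = 0.343). Trim63 measured 806, 138, 181 and 215 CPM in double KO soleus against 240.3, 302, 396 and 269 CPM in control. Double KO 1 was again above every control and the other 3 under every control, so the log2 fold change was 0.18 (SE 0.419, edgeR adjusted p = 0.913) with that mouse and −0.77 (SE 0.196, adjusted p = 0.0651) without it. Fbxo30 measured 52.4, 15.6, 16.7 and 19.1 CPM in double KO and 18.1, 20.2, 15.2 and 18.3 CPM in control, and its log2 fold change was 0.56 (edgeR adjusted p = 0.517) with double KO 1 and −0.07 without it. The remaining 6 members, Trim54, Trim55, Fbxo40, Fbxo21, Stub1 and Traf6, had log2 fold changes between −0.21 and 0.14.

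In control soleus 6 members were lower than in control gastrocnemius and none was higher, where 40.4% of 18726 genes were called and 20% were lower. The 6 were Trim63 (log2 fold change −2.38, SE 0.428, edgeR adjusted p = 4.99e-05), Fbxo32 (−1.56, SE 0.284, adjusted p = 5.86e-05), Trim54 (−0.61, adjusted p = 6e-06), Traf6 (−0.60, adjusted p = 5.68e-05), Trim55 (−0.59, adjusted p = 0.00759) and Cblb (−0.35, adjusted p = 0.0418). For all 6 the soleus libraries lay under the gastrocnemius libraries without overlap, as 19.1% of all genes did, and the members' median log2 fold change was −0.47 beside 0.07 over all genes. Trim63 averaged 302 ± 67.4 CPM in control soleus and 1574 ± 139.8 CPM in control gastrocnemius. Traf6 averaged 16.1 CPM in control soleus and 24.4 CPM in control gastrocnemius. The call of Cblb was lost without control 1 (adjusted p = 0.145, edgeR), control 3 (0.145) or control 4 (0.0798). Fbxo40 (−0.31, edgeR adjusted p = 0.0721) passed with the mouse as a block (−0.32, adjusted p = 0.0337). Fbxo30 (−0.11), Stub1 (−0.09) and Fbxo21 (0.24) showed no called difference between the muscles.

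In double KO mice 5 members were lower in soleus than in gastrocnemius, where 39.7% of all genes were called and 18.1% were lower. These were Trim63 (log2 fold change −1.31, SE 0.413, edgeR adjusted p = 0.0131), Fbxo32 (−1.06, SE 0.280, adjusted p = 0.00349), Traf6 (−0.49, adjusted p = 0.000577), Trim54 (−0.45, adjusted p = 0.000334) and Fbxo40 (−0.45, adjusted p = 0.0123). The last was lost without double KO 2 (−0.40, adjusted p = 0.0672). For Trim63 and Fbxo32 the libraries of the muscles overlapped, through the soleus of double KO 1.

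Within each mouse, Trim63 in soleus was 35.3 to 42.4% of its level in gastrocnemius in double KO, 14.6 to 26.6% in Acvr1b KO, 16.2 to 20.6% in Tgfbr1 KO and 13.8 to 27.5% in control. The 4 double KO mice, double KO 1 among them, all lay above the other 12. The share of all genes whose ratio separates the mice in this way was not computed. The log2 fold change of Trim63 in double KO over control was −0.90 in gastrocnemius and 0.18 in soleus. Without double KO 1 it was −1.73 and −0.77, a smaller fall in soleus. The signed difference of the effects, soleus minus gastrocnemius, was 1.08 on the log2 scale. It did not pass the test in the fit that leaves out the pairing of muscles by mouse (SE 0.577, edgeR adjusted p = 0.625). In that fit without double KO 1 it was 0.97 (SE 0.262, edgeR adjusted p = 0.0543). With the mouse as a block, which takes out what its muscles share, it was 1.03 (SE 0.199, edgeR adjusted p = 0.0106), the 1 member called where 1.38% of all genes were called. Without the block 0 of 10 members were called, beside 0.732% of all genes. For Fbxo32 the soleus share was 48.4 ± 3.51% in double KO and 34.5 ± 9.70% in control (SD, n = 4 each), ranges of 44.5 to 52.5% and 23.1 to 45.9% that overlap. For neither single knockout was a difference in effect between the muscles called for any member by edgeR or DESeq2, beside 0% of all genes.

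**Figure D4:**
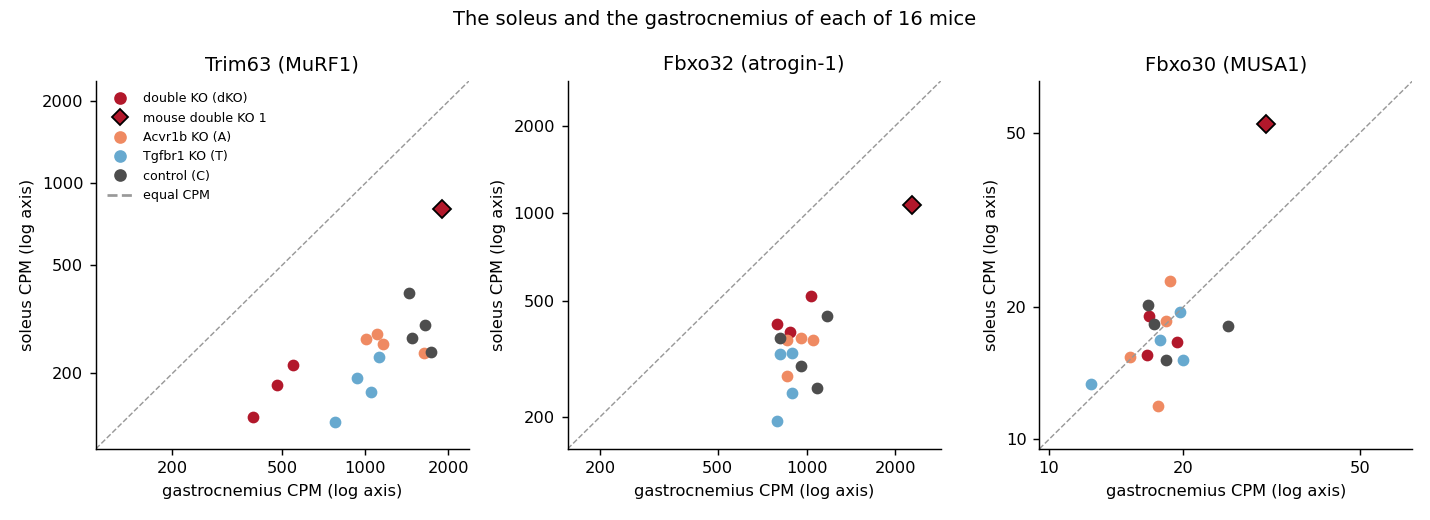
CPM in soleus (vertical, log axis) against CPM in gastrocnemius (horizontal, log axis) of each of 16 mice for Trim63, Fbxo32 and Fbxo30, coloured by genotype, with the mouse double KO 1 drawn as a diamond and the dashed line at equal CPM. For Trim63 the 4 double KO mice sit nearest to the line, with soleus at 35.3 to 42.4% of gastrocnemius, and the diamond lies far from the other 3.

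Of the 10 members, Trim63, Fbxo32 and Fbxo30 were higher in the mouse double KO 1 than in any other double KO mouse in both muscles. Trim63 in that mouse was 4.02 times the mean of the other 3 double KO mice in gastrocnemius and 4.53 times in soleus. Fbxo32 was 2.52 and 2.42 times that mean and Fbxo30 1.74 and 3.06 times. Trim55 went the other way, at 0.619 and 0.596 times, and Stub1 was at 0.853 and 0.722 times. Fbxo40, whose ligase also acts on IRS1, was at 0.974 and 0.967 times.

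The denervation response list, 10 genes such as acetylcholine receptor subunits, Myog and Gadd45a, was high in the same libraries. Its summed level was 611, 208, 210.1 and 194 CPM in double KO gastrocnemius, against 105 to 114 CPM in control. In soleus it was 1445, 76.8, 85.9 and 86.6 CPM in double KO, against 83.6 to 103 CPM in control. Gadd45a measured 327, 75.8, 78.3 and 69.7 CPM in double KO gastrocnemius and 24.5, 25.7, 16.8 and 20.4 CPM in control, so all 4 double KO libraries were higher there. In soleus Gadd45a was 803 CPM in double KO 1, with 9.75, 11.8 and 12 CPM in double KO 2 to 4, against 4.86 to 8.96 CPM in control. The slow-fibre markers summed to 9551 CPM in the soleus of double KO 1 but 17364 to 19101 CPM in the soleus of double KO 2 to 4, against 17980.1 to 22527 CPM in control. Myofibre markers summed to 28978 CPM in that soleus and to 49006 to 54762 in the other 3, against 46327 to 52699 CPM in control. Macrophage markers summed to 165 CPM there and to 68.4 to 109 in the other 3, against 45.3 to 104 CPM in control. The part of these gene groups in the ligase levels of this mouse was not tested.

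Across mice, the deviation of a library from its group mean was compared between the muscles of 1 mouse for each of the 10 members. For Trim63 Pearson's r was 0.87 (16 mice, permutation p = 0.0429, adjusted over 10 members 0.121) and Spearman's rho 0.53 (permutation p = 0.108). Without the 2 mice farthest from the median in gastrocnemius, double KO 1 and double KO 2, r was 0.37, and without double KO 1 alone it was 0.27 (permutation p = 0.347), so the relation rests on that mouse. None of the 10 correlations passed after adjustment. In gastrocnemius Trim63 and Fbxo32 deviated together, with r = 0.90 (16 libraries, permutation p = 0.016, adjusted over the 2 muscles 0.032) and rho = 0.65 (permutation p = 0.0557). Here r was 0.52 without the 2 farthest libraries and 0.42 (adjusted permutation p = 0.239) without double KO 1. In soleus r was 0.56 (permutation p = 0.228) and rho 0.17, and without double KO 1 r was −0.34.

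The genes whose levels ran most like a member's were ranked among 8089 genes by the lower of 2 Pearson correlations of log2 CPM, one over the 16 libraries of each muscle. Closest to Trim63 were Psmd8 (r = 0.879 in gastrocnemius, 0.898 in soleus), Anxa7 (0.928 and 0.869), Mafk (0.902 and 0.848), Musk (0.888 and 0.832) and Elk4 (0.95 and 0.832), while Fbxo32 ranked 385. Closest to Fbxo32 were Birc3 (0.796 and 0.784), Ypel3, Abhd6 and Tnip1, and Fbxo30 ranked 49. Closest to Fbxo40 were Cnot1 (0.66 and 0.798), Tulp4, Mef2d, Etl4 and Arhgef12. The libraries share a mouse, a genotype and depth, and the values moved without double KO 1. Beside Fbxo32, Birc3 then had r = 0.275 in gastrocnemius and 0.339 in soleus, and Abhd6 0.49 and 0.566. Ypel3 then had r = 0.085 in gastrocnemius and 0.375 in soleus, and Tnip1 −0.033 and 0.283. Beside Trim63, Elk4 then had r = 0.95 in gastrocnemius and 0.551 in soleus, and Anxa7 0.952 and 0.668.

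Upstream of the ligases, 13 of 24 listed FoxO factors and inputs passed the test in double KO gastrocnemius, where 20.9% of all genes did. Of these 5 were higher and 8 lower, beside 11.4% and 9.59% of all genes, and the list's median log2 fold change was −0.17. Foxo1, a forkhead factor known to induce Trim63 and Fbxo32, measured 124, 59.2, 60.5 and 69.4 CPM in double KO and 182, 201, 191 and 187 CPM in control. All double KO libraries were lower, with a log2 fold change of −1.26 (SE 0.223, edgeR adjusted p = 0.000741). Fkbp5, a glucocorticoid-induced chaperone partner, averaged 64.8 ± 31.1 CPM in double KO and 245 ± 55.4 CPM in control (log2 fold change −1.90, edgeR adjusted p = 0.000143). Foxo6 was higher (1.04, edgeR adjusted p = 0.00136), and so was Myog (1.80, adjusted p = 0.0202), a call lost without double KO 1 (0.63, adjusted p = 0.0815).

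In soleus, where 0.722% of all genes were called, 3 of the 24 were lower and none higher. These were Foxo1, at 66.0, 50, 49.8 and 62.8 CPM in double KO against 110, 125, 90.9 and 136 CPM in control (log2 fold change −1.0, SE 0.164, edgeR adjusted p = 0.00896), Fkbp5 (−1.36, adjusted p = 0.00503) and Klf15, a glucocorticoid-induced factor (−0.78, adjusted p = 0.00535). Double KO and control libraries of Foxo1 did not overlap in either muscle. In gastrocnemius 10.9% of all genes were lower without overlap, and that share in soleus is not given here. Foxo1 in double KO 1 was 124 CPM in gastrocnemius and 66.0 CPM in soleus, the highest of the double KO libraries in each muscle, as were its Trim63 levels. In soleus double KO 4 was close, at 62.8 CPM. Both Foxo1 values of double KO 1 lay under every control, while its Trim63 levels lay above every control. The part of Foxo1 in those levels was not tested. In the single knockouts 1 of these 24 genes was called, Klf15 in Tgfbr1 KO gastrocnemius (−0.67, edgeR adjusted p = 0.0433), where 0.171% of all genes were called.

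**Figure D5:**
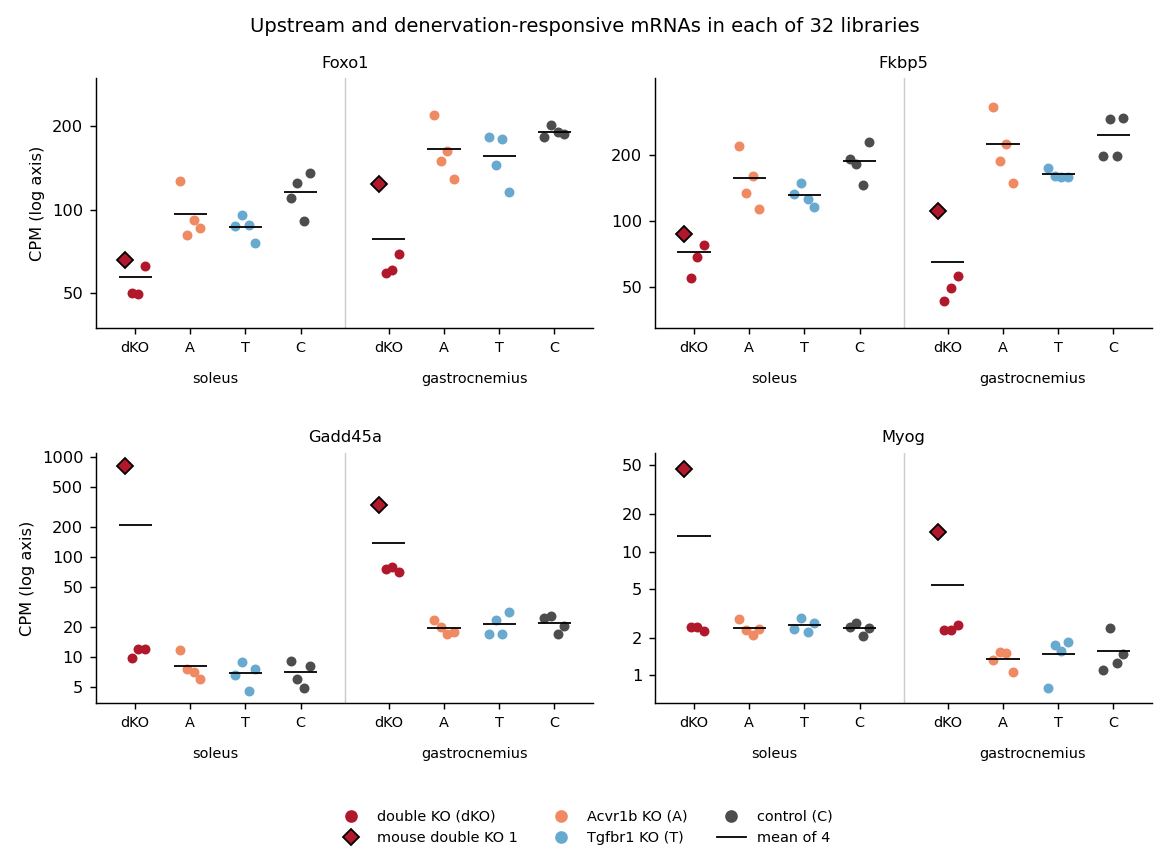
CPM on a log axis in each of 32 libraries of Foxo1, Fkbp5, Gadd45a and Myog, soleus left and gastrocnemius right in each panel; dots are libraries by genotype, diamonds the mouse double KO 1, bars the means of 4. Foxo1 in double KO lies under control in both muscles (49.8 to 66.0 against 90.9 to 136 CPM in soleus), and the Gadd45a and Myog diamonds lie above all other libraries.

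In double KO gastrocnemius, where 11.4% of all genes were higher and 9.59% lower, 1 of 15 SCF and cullin genes was higher, the cullin exchange factor Cand2 (log2 fold change 0.59, edgeR adjusted p = 0.00021), and 1 lower, the RING subunit Rbx1 (−0.22, adjusted p = 0.0325). Of 25 ubiquitin, E1 and E2 genes 2 were higher, Ube2o (0.70, edgeR adjusted p = 2.17e-05) and Ubb (0.27, adjusted p = 0.0291), and 3 lower, among them Ube2r2 (−0.30, adjusted p = 0.0236), an E2 enzyme that works with SCF ligases. Of 29 other ligases linked to muscle 2 were higher and 5 lower, with Asb15 at −1.0 (edgeR adjusted p = 0.00144), Asb5 at −0.66 (adjusted p = 0.000189), Huwe1 at −0.53 (adjusted p = 4.92e-05) and Nedd4l at −0.50 (adjusted p = 0.0207). In a separate fit without double KO 1 the counts were 5 and 6. The shares of 11.4% and 9.59% do not apply to that fit, whose own shares are not given here.

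Of 25 substrates and partners 3 were higher and 5 lower, beside 11.4% and 9.59% of all genes. Myod1, a target of atrogin-1, averaged 6.50 ± 1.48 CPM in double KO and 1.39 ± 0.532 CPM in control (log2 fold change 2.26, edgeR adjusted p = 2.28e-05). The sarcomere genes Tcap (−0.66, edgeR adjusted p = 9.08e-05), Cmya5 (−0.59, adjusted p = 0.000568) and Ttn (−0.53, adjusted p = 0.00441) were lower. Of 9 denervation response genes tested 8 were higher, with Chrne at 54.1 ± 2.12 CPM in double KO and 9.07 ± 1.64 CPM in control (log2 fold change 2.59, edgeR adjusted p = 5.38e-10). The separate fit without double KO 1, whose shares over all genes are not given here, had 6 higher and 1 lower. In soleus none of the genes of these 5 lists was called by edgeR with all 4 double KO mice, beside 0.722% of all genes.

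In control soleus against control gastrocnemius 20.5% of all genes were higher and 20% lower. Of 25 ubiquitin, E1 and E2 genes 14 were lower and 2 higher, and of 29 other ligases 16 were lower and 3 higher. Asb15 (log2 fold change −1.92) and Nedd4l (−1.67) were lowest among those ligases and Ube2d1 (−1.51) among the E2 enzymes. Of 15 SCF and cullin genes 5 were lower, Cul3 (−1.13) and Cul5 (−0.76) among them, and none higher.

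Markers of other cells also moved in double KO gastrocnemius against control, where 11.4% of all genes were higher and 9.59% lower. Of 8 macrophage markers 5 were higher, with a summed level of 83.4 to 154 CPM in double KO, the highest in double KO 1, and 61.9 to 71.6 CPM in control. Of 6 endothelial markers 3 were lower (sums of 177 to 195 CPM in double KO and 206 to 238 in control), as were 2 of 6 adipocyte markers (63.8 to 105 CPM and 89 to 135 CPM). Slow-fibre markers were lower in 5 of 5 (715 to 1123 CPM and 1495 to 2314 CPM) and fast-fibre markers in 3 of 5 with 1 higher (85715 to 99664 CPM and 108394 to 145209 CPM). Fibroblast markers had 2 of 6 higher, neutrophil markers 1 of 6 lower, satellite cell markers 1 higher and 1 lower of 5, and no nerve sheath or lymphocyte marker was called. No macrophage, endothelial, fibroblast or adipocyte marker was at 0 in all libraries of a group. In soleus no marker of any list was called, beside 0.722% of all genes. Their part in the fall of Trim54, Cblb and Stub1 was not tested, and in whole muscle fewer cells of a type and less RNA per cell cannot be told apart.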

How the data were processed

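PolyA RNA from whole muscle was sequenced in 32 libraries, grouped by the tissue and genotype in the labels. The authors' deposited table holds estimated counts per gene. Per the file headers, featureCounts 2.0.1 assigned reads to Ensembl 102 models of GRCm38, reverse-stranded (setting 2), and split a read with several alignments into fractions. Exon length per gene model, in another column of the deposited table, gave CPM per kb. The submitters' processing notes also name cutadapt, HISAT2, FastQC 0.11.9 and DESeq2.

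Counts were rounded to whole numbers, filtered with filterByExpr and scaled by TMM. Filtering left 17536 genes in gastrocnemius, 18143 in soleus and 18726 over both muscles. Tests were 2-sided edgeR quasi-likelihood tests (edgeR 4.0.16, R 4.3.3, robust fit) with Benjamini-Hochberg adjustment over all genes. The 16 libraries of a muscle shared 1 fit (12 residual degrees of freedom), and comparisons between muscles used a fit of all 32 (24 degrees). The standard error is the log2 fold change divided by the square root of F. Correlations used log2 CPM (prior count 2), deviations from group means and 100000 permutations within genotype, 2-sided. The test was checked on counts simulated from mean gastrocnemius levels, with the same spread for every gene and no outlying mouse. That check does not cover soleus or a mouse that stands apart. Symbols came from GENCODE M21 and promoters from RefSeq.

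The animal number in the labels joins the muscles of 1 mouse; deviations from group means correlated by 0.03 to 0.58 over the 16 mice. Members and gene lists were chosen with earlier results of these data known. All 10 members are reported; of each list at most 4 called genes with the largest fold changes, or the 2 most abundant, could be named, and the 5 genes most like Trim63, Fbxo32 and Fbxo40 among those with at least 5 CPM on average in each muscle; 1 of these is not reported here. Alternatives were DESeq2 1.42.0, RLE size factors, no filter, a replicate block, only the groups compared, leaving out each library and, chosen after seeing the data, leaving out 5 libraries that stood apart. The labels name separate mice as replicates.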

Additional observations from a re-analysis of the deposited data

Results flagged for a closer look

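A library was singled out when its gap to the nearest of the other 3 in its group, divided by the range, passed Dixon's 95% critical value for 4 samples. This held in 12 of 80 groups of 4. Independent normal values would pass in about 1 in 20, but these groups are 10 genes read in the same 32 libraries. The mouse double KO 1 accounted for 6 of the 12, in 5 genes.

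In that mouse Trim63 was high at 1899 CPM in gastrocnemius (391 to 545 in the other 3 double KO mice) and at 806 CPM in soleus (138 to 215). Fbxo32 was high at 2277 CPM in its gastrocnemius (793 to 1038), Fbxo30 at 52.4 CPM (15.6 to 19.1) and Traf6 at 20.9 CPM (15.4 to 16.3) in its soleus. Trim55 was low at 34 CPM in its gastrocnemius (54.3 to 55.8).

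The remaining 6 were spread over other mice. In soleus, Acvr1b KO 1 was low for Fbxo21 at 12.4 CPM (17 to 17.2 in the other 3) and high for Trim54 at 324 CPM (247 to 257). Acvr1b KO 3 was low for Fbxo32 at 277 CPM in soleus (366 to 374), and control 3 low for Traf6 at 13.3 CPM in soleus (16.7 to 17.3). In gastrocnemius, Tgfbr1 KO 3 was low for Fbxo21 at 11.4 CPM (13.1 to 13.4) and control 1 high for Cblb at 43.5 CPM (38.8 to 39.0).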

How the results depend on the processing

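No called log2 fold change of a member changed sign. Of 2390 values under alternatives 2358 kept their side of the threshold, 15 lost it and 17 gained it. Among values called in neither analysis 153 changed sign. With the replicate number as a block, which pairs different mice within a muscle (correlations of deviations −0.24 to 0.26, with 5 of 40 over 0.1), Stub1 departed from additivity in gastrocnemius (−0.51, edgeR adjusted p = 0.0436), 1 member against 0 without the block, and Trim63 was lower in double KO than in control gastrocnemius (−1.13, adjusted p = 0.0194). With the mouse as a block the effect of double KO differed between muscles for 1 member, Trim63, against 0 without it. DESeq2 called 1 member, Fbxo32, in double KO against Tgfbr1 KO soleus, against 0 by edgeR, and Cblb in double KO against Acvr1b KO gastrocnemius (adjusted p = 0.0492). Without a filter Trim54 missed the threshold against Tgfbr1 KO gastrocnemius (0.052), and with only the groups compared so did Trim54 there (0.0649) and Stub1 against control (0.0581), while Cblb passed against Acvr1b KO (0.0487). Leaving out 1 library at a time gave 2 to 3 members called in double KO against control, 2 to 3 against Acvr1b KO and 2 to 4 against Tgfbr1 KO in gastrocnemius. It gave 5 to 6 in control soleus against gastrocnemius, 4 to 5 in double KO soleus against gastrocnemius and 0 to 0 in the other 12 comparisons. Without the 5 libraries that stood apart Trim63 was lower in double KO than in control gastrocnemius (−1.68, edgeR adjusted p = 2.44e-05), Acvr1b KO (−1.38, adjusted p = 7.93e-05) and Tgfbr1 KO (−1.05, adjusted p = 0.00137), and Cblb between control muscles missed the threshold (0.0667). Fbxo40 between control muscles passed with DESeq2 (0.0394), RLE (0.0479) and without control 3 (0.0354). On plain CPM 22 of 80 group means moved by more than 1 SD. Of the 2 correlations of Trim63 with Fbxo32, 1 passed with all mice and 0 without the mouse double KO 1. The causes were not tested.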
